A study of Homo sapiens with 9 samples.

Results

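Integrins are cell surface receptors for the extracellular matrix and for other cells, and laminins are the secreted matrix proteins that many of them bind. The 38 genes described here were all rows of the count table whose symbol names an integrin alpha chain, an integrin beta chain or a laminin chain, out of 42717 rows that name a gene. They comprised 18 integrin alpha genes, 8 integrin beta genes and 12 laminin genes. Between sublines of one pancreatic cancer line, LAMA3, LAMB3, LAMB1 and LAMC1 were higher in S2-028 than in S2-007. LAMB1 and LAMC1 were also higher in S2-020 than in S2-007. Compared with S2-007, S2-020 held less LAMA3, ITGA2, ITGA6, ITGB6 and ITGB8 and more ITGA10, ITGA5 and ITGAV.

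Each integrin is a pair of 1 alpha and 1 beta chain, and the pair decides the ligand. The alpha chains of ITGA3, ITGA6 and ITGA7 serve laminin receptors, those of ITGA1, ITGA2, ITGA10 and ITGA11 collagen receptors, and those of ITGA5, ITGA8, ITGAV and ITGA2B receptors for ligands with the RGD motif, such as fibronectin and vitronectin. A laminin is a trimer of an alpha, a beta and a gamma chain. The LAMA3 and LAMB3 products are chains of a laminin that anchors epithelia to their basement membrane, where it is bound by the integrin of ITGA6 and ITGB4 in hemidesmosomes and by that of ITGA3 and ITGB1.

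RNA of 3 human pancreatic ductal adenocarcinoma (PDAC) cell lines was sequenced in 9 libraries, 3 for each line. S2-007, S2-020 and S2-028 are sublines of SUIT-2, and the study characterised their maspin, a serpin encoded by SERPINB5. In S2-007 the protein was found in nucleus and cytoplasm (panMaspin), in S2-028 mainly in the cytoplasm (cytMaspin), and in S2-020 it was only weakly detected. The labels name no transgene and no treatment for any of the lines, which were grown in DMEM with fetal bovine serum. Each line is a single subline, so maspin and the other properties in which the sublines differ cannot be told apart. The labels do not say that the libraries of a line came from separate cultures, so the p-values measure the spread between these libraries, which may be technical. In bulk RNA, fewer cells of a kind and less RNA per cell cannot be told apart.

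Total counts ranged from 60328748 to 86253923 per library, and the 3 S2-028 libraries were the shallowest, with 60328748 to 61800271 counts each. Libraries of 1 line differed from each other by a chi-square of 7.91 to 22.0 per gene and libraries of different lines by 212 to 323. The epithelial markers EPCAM, CDH1, KRT8, KRT18 and KRT19 were present in every line, with a summed level of 9480.2 to 9795 CPM, counts scaled to a common library size, in S2-007, 4218 to 5354 in S2-020 and 14215 to 16950.2 in S2-028. All 5 had a lower mean in S2-020 than in S2-007, and 4 of the 5 passed the thresholds given below. KRT8 and KRT18 were the largest parts of the S2-028 sum, with means of 8421 and 4824 CPM. EPCAM and KRT19 averaged 534 and 2150 CPM in S2-007 and less in S2-028, at 420 and 1927. PTPRC, the pan-leukocyte gene, reached at most 26 counts in any library.

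A gene was called where edgeR's quasi-likelihood F-test (Benjamini-Hochberg adjusted) over all genes tested gave a value under 0.05 and the fold change was at least 1.5, which is 0.585 on the log2 scale. Log2 fold changes are given for the first line minus the second. In S2-028 against S2-007, 18.4% of the 26371 genes tested were called, and 13 of the 37 integrin and laminin genes tested were called, 7 higher (10.2% of all genes) and 6 lower (8.19%). In S2-020 against S2-007, 21.6% of 26657 genes were called, and 18 of 37 members, 8 higher (9.57% of all genes) and 10 lower (12.1%). In S2-028 against S2-020, 22.2% of 26031 genes were called, and 15 of 38 members, 9 higher (12.1%) and 6 lower (10.1%). S2-007 is shared by the first 2 comparisons and each line enters 2 of the 3, so these are not independent of each other.

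LAMA1, with too few counts in S2-007, was not tested against that line. The members' median fold change was close to that of all genes, at 0.06, -0.12 and 0.07 in the 3 comparisons against 0.00, -0.05 and 0.02. Their median absolute fold change was 0.37 in S2-028 against S2-007, 0.67 in S2-020 against S2-007 and 0.61 in S2-028 against S2-020, where all genes had 0.35, 0.39 and 0.39. In 25, 29 and 24 members respectively, all 3 libraries of one line lay above all 3 of the other, which was 67.6%, 78.4% and 63.2% of the members tested against 43.7%, 48.8% and 48.6% of all genes tested. In all, 25 of the 38 genes were called in at least 1 comparison. The share of all genes called in at least 1 comparison was not computed, so this count has no background beside it.

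**Figure D1:**
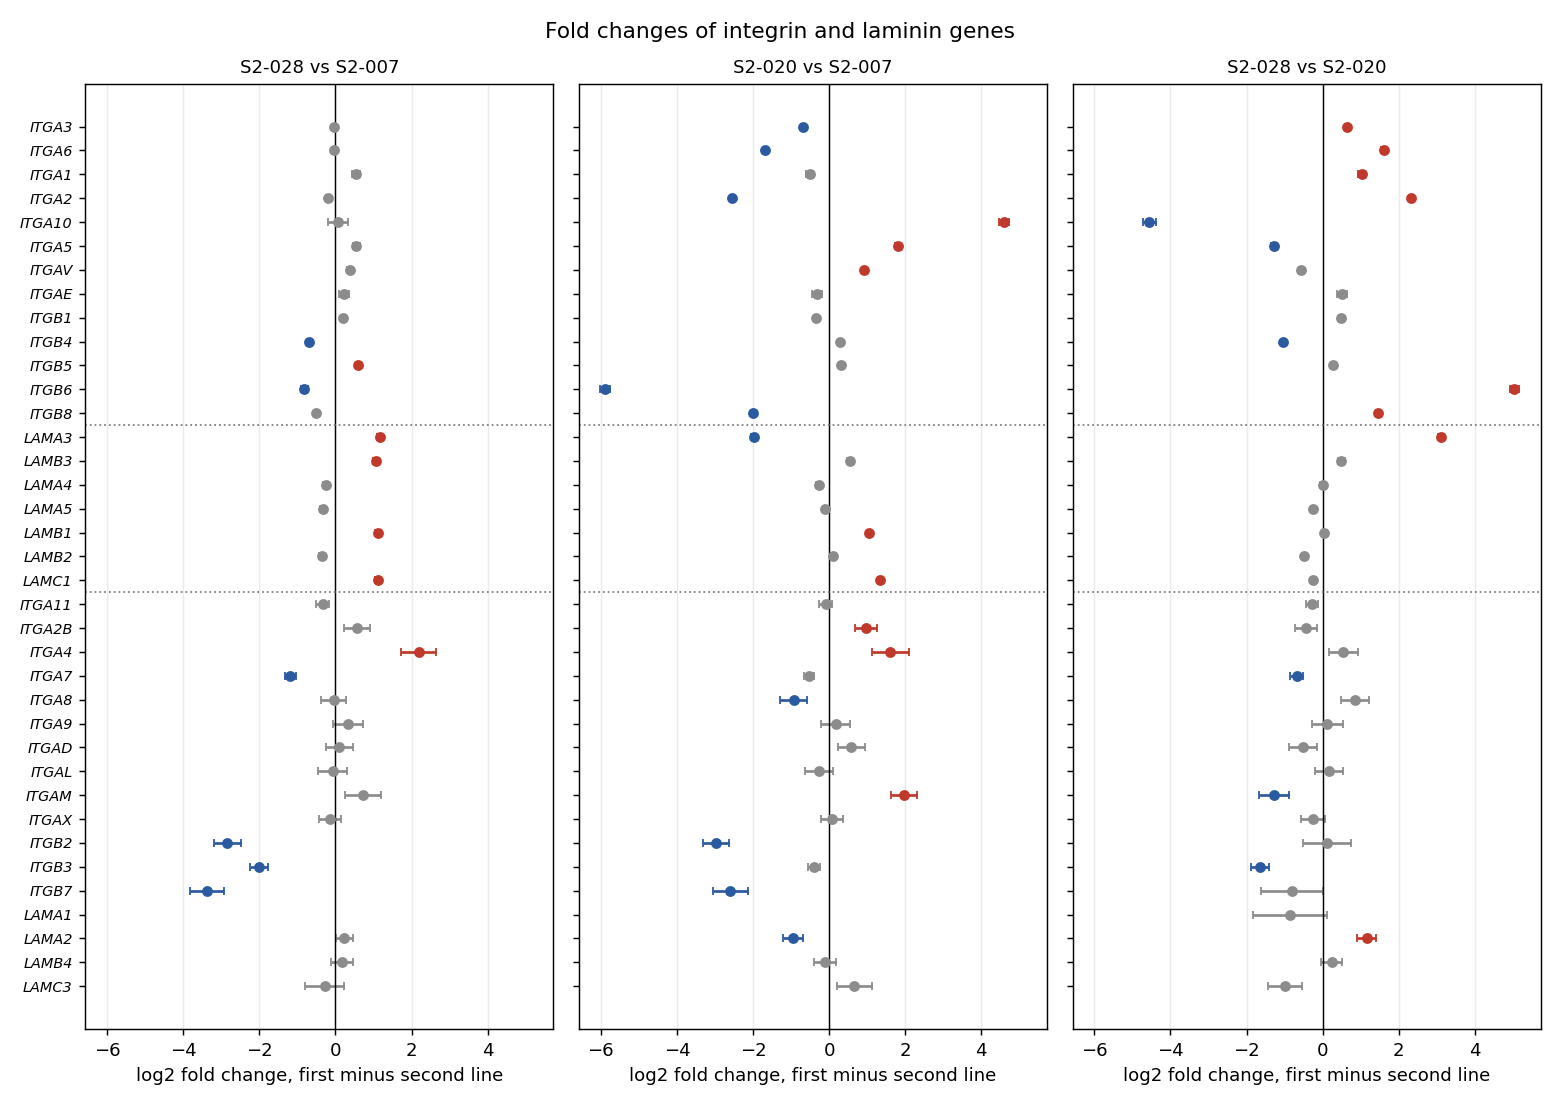
Log2 fold change (x axis, first line minus second) of 37 integrin and laminin genes (y axis) in the 3 comparisons, with bars of 1 standard error from edgeR's quasi-likelihood fit on 3 libraries per line. Red points were called higher and blue points lower in the first line, grey points were not called, and genes under the lower dotted line stayed below 10 CPM in every line. In the S2-028 against S2-007 panel the abundant red points are ITGB5, LAMA3, LAMB3, LAMB1 and LAMC1, and the farthest point of any panel is ITGB6 at -5.89.

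LAMA3 and LAMB3 both rose in S2-028 against S2-007, and in S2-020 they went apart. LAMA3 (chr18:23689453-23955066, GRCh38.p14) encodes the alpha3 chain and gave 231, 228 and 241 normalized CPM in the S2-007 libraries, 51.8, 59.5 and 65.6 in S2-020 and 494, 465 and 579 in S2-028. Each S2-028 library thus lay above all of S2-007, and each S2-020 library below. LAMA3 rose by 1.16 (SE 0.0703, adjusted p = 1.95e-11) in S2-028 against S2-007, and its fold change was -1.98 (SE 0.0701, adjusted p = 8.34e-15) in S2-020 against S2-007 and 3.11 (SE 0.0857, adjusted p = 4.35e-16) in S2-028 against S2-020, all from edgeR's quasi-likelihood F-test (Benjamini-Hochberg adjusted).

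LAMB3 (chr1:209614870-209652425), the beta3 chain, measured 126, 123 and 134 normalized CPM in the S2-007 libraries, 183, 162 and 212 in S2-020 and 267, 218 and 300.4 in S2-028. Every S2-028 library exceeded every S2-020 library, and every S2-020 library exceeded every S2-007 library. The rise in S2-028 against S2-007 was 1.06 (SE 0.08499, adjusted p = 1.7e-09) by the quasi-likelihood test. The steps on either side of S2-020 were smaller, 0.54 (SE 0.0739, adjusted p = 4.78e-06) against S2-007 and 0.49 (SE 0.0943, adjusted p = 0.000285) below S2-028, neither past the fold threshold. Single libraries decided that: the first reached 0.61 without S2-007 replicate 3 and 0.63 without S2-020 replicate 2, and the second 0.59 without S2-020 replicate 3 and 0.61 without S2-028 replicate 2, and all 4 values were called.

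Both chains were then compared per length. Per kb of the MANE Select transcript, the level of LAMA3 divided by that of LAMB3 came to 0.689 ± 0.0114 (SD, n = 3) in S2-007, 0.744 ± 0.0553 in S2-028 and 0.121 ± 0.0163 in S2-020. With the length of the short LAMA3 transcript instead, an alternative added after the data were seen, the ratio became 1.31 ± 0.0217, 1.41 ± 0.105 and 0.229 ± 0.03095 in the same order, so whether it lay below or above 1 in S2-007 and S2-028 depended on the length taken. S2-020 had the lowest ratio, and a length taken for all libraries alike cannot change that order. Whether the lines used different LAMA3 transcripts cannot be read from counts per gene. With 3 libraries a line, an exact permutation test of 1 ratio cannot give a two-sided p below its smallest value of 0.1, so this and the other ratios carry no p-value.

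The promoter windows of 5 members are printed because the LAMA3, LAMB3, LAMB1, LAMC1 and ITGA5 transcripts differ between the lines and their windows differ in motif content. Each runs from 250 bases before a RefSeq transcription start to 50 bases from it (RefSeq, GRCh38.p14), 5′ to 3′ on the gene's strand, with the AP-1 letters TGACTCA or TGAGTCA and the GC box letters GGGCGG or CCGCCC in capitals. The windows are chr18:23872770-23873069 (plus strand), chr1:209652376-209652675 (minus), chr7:108003112-108003411 (minus), chr1:183023170-183023469 (plus) and chr12:54419217-54419516 (minus).
LAMA3: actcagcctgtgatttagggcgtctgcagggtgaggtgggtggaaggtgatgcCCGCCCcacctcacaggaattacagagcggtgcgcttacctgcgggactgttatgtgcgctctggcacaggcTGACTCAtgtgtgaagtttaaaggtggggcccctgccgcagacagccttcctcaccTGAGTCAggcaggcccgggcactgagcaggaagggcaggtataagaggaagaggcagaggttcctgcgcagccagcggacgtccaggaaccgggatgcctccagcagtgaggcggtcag
LAMB3: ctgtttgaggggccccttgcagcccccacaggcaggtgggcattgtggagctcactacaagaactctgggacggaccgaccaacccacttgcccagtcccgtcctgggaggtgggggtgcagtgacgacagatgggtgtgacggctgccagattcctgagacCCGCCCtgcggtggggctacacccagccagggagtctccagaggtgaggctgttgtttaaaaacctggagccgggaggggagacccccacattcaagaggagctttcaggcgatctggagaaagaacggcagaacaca
LAMB1: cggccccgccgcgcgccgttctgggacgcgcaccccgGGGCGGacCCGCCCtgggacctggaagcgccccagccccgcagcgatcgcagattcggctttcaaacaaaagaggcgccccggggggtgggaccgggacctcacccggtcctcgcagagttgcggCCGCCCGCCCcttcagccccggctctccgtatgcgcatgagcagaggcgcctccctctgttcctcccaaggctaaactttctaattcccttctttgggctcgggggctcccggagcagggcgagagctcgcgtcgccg
LAMC1: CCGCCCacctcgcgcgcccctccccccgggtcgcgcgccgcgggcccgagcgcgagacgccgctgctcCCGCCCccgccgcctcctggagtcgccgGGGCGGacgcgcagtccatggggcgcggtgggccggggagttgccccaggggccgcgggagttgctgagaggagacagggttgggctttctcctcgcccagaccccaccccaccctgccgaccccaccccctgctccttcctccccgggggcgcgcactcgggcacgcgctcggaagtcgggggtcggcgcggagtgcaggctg
ITGA5: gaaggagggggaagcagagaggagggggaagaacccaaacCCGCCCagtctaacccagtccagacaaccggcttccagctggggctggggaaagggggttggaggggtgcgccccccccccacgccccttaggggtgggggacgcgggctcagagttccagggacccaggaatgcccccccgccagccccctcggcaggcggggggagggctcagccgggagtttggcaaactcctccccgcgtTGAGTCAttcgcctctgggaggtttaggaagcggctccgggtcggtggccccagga

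The LAMA3 window lies 183317 bases inside the RefSeq gene start, at the start of the short transcript, and holds AP-1 letters 125 and 69 bases before the start and 1 GC box at 197 bases. In the ITGA5 window the AP-1 letters begin 6 bases before the start. The LAMB1 window has 4 GC boxes, of which those at 88 and 84 bases overlap, and the LAMC1 window 3, with a GC content of 71.0% and 79.0%. Of 26 members with a window, taking the first listed window of a gene, AP-1 letters occurred in 2 and a GC box in 14, against 4.92% and 44.6% of 27305 genes. Counting every start of a gene, AP-1 letters occurred in 3 members, against 6.05% of genes: LAMB3 has 3 windows, and the one at chr1:209651325-209651624 holds AP-1 letters once. The E-box letters CANNTG, which read the same on either strand, occurred in 14 of the 26 first windows against 68.9% of genes. These are matches of letters only, and binding was not measured.

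**Figure D2:**
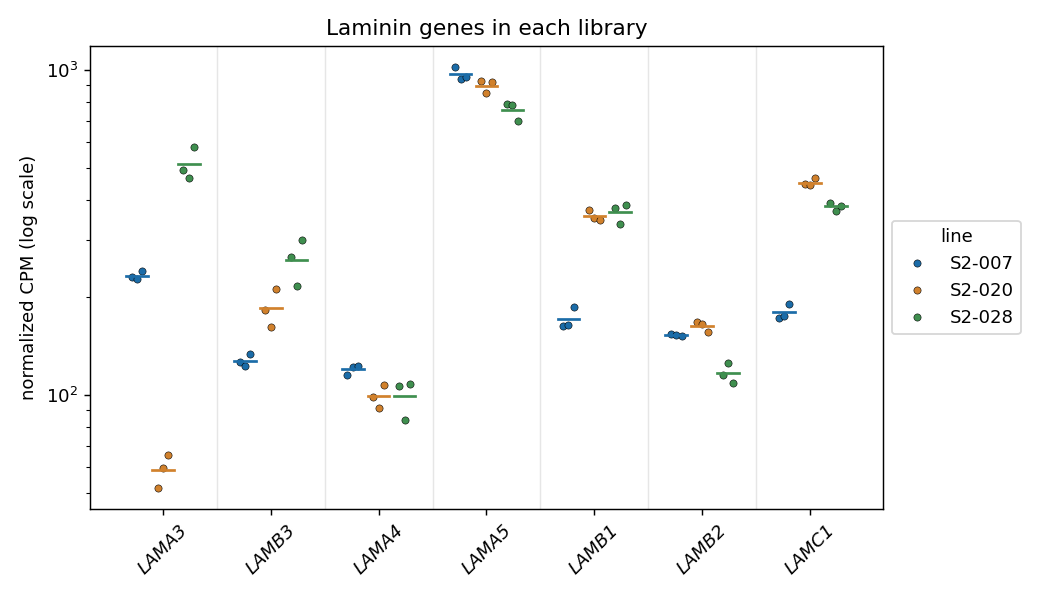
Normalized CPM on a log scale (y axis) of 7 laminin genes with at least 10 CPM in a line (x axis), with a point for each library and a bar for the mean of each line's 3 libraries. LAMA3 is highest in S2-028 and lowest in S2-020, and LAMB1 and LAMC1 are lower in S2-007 than in both other lines.

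LAMB1 and LAMC1, the beta1 and gamma1 chains shared by laminins of most basement membranes, shared a pattern: both were higher in S2-028 and in S2-020 than in S2-007. LAMB1 (chr7:107923799-108003161) measured 163, 164 and 187 normalized CPM in the S2-007 libraries, 370.2, 350.3 and 346 in S2-020 and 377, 336 and 384 in S2-028. LAMC1 (chr1:183023420-183145592) measured 173, 176 and 190.4 normalized CPM in the S2-007 libraries, 446, 443 and 465 in S2-020 and 390.3, 369.9 and 383 in S2-028. No S2-007 library of either gene reached the lowest library of the other lines. LAMB1 rose by 1.12 (SE 0.0677, adjusted p = 1.96e-11) in S2-028 and 1.05 (SE 0.0576, adjusted p = 8.52e-12) in S2-020, each against S2-007 by edgeR's quasi-likelihood F-test (Benjamini-Hochberg adjusted). For LAMC1 the rises were 1.11 (SE 0.05898, adjusted p = 2.3e-12) and 1.33 (SE 0.0523, adjusted p = 4.66e-14). Between S2-028 and S2-020, LAMB1 differed by 0.03 (adjusted p = 0.683), its ranges overlapping, and LAMC1 by -0.25 (adjusted p = 0.000172), short of the fold threshold. Per kb, LAMB1 to LAMC1 stayed between 1.11 and 1.35 in the means of the lines.

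LAMA5, LAMB2 and LAMA4 passed the fold threshold in no comparison. LAMA5, the alpha5 chain of adult epithelial basement membranes, measured 1023, 942 and 951 normalized CPM in the S2-007 libraries, 926, 849 and 918 in S2-020 and 787, 783 and 700.1 in S2-028. It was lower in S2-028 by a value short of the threshold, -0.34 (adjusted p = 9.15e-05) against S2-007 and -0.25 (adjusted p = 0.00049) against S2-020. LAMB2, the beta2 chain, measured 155, 153 and 152 normalized CPM in the S2-007 libraries, 168, 165 and 157 in S2-020 and 116, 126 and 109 in S2-028, and its S2-028 libraries lay below both other lines with fold changes of -0.37 (adjusted p = 7.38e-05) and -0.49 (adjusted p = 1.31e-06). For LAMA4, the alpha4 chain best known from vessels and muscle, the libraries gave 116, 122 and 123 normalized CPM in the S2-007 libraries, 98.7, 91.6 and 107 in S2-020 and 107, 84.1 and 108 in S2-028, with a fold change of -0.24 (adjusted p = 0.0197) in S2-028 against S2-007. The LAMA4 libraries of S2-020 also lay below all of S2-007, and the ranges of S2-020 and S2-028 overlapped.

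Per kb, LAMA5 was the most abundant laminin alpha transcript in every line, at 68.7% ± 1.35 of the alpha total (SD, n = 3) in S2-007, 80.2% ± 1.08 in S2-020 and 51.6% ± 4.32 in S2-028. LAMA3 made up 17.7% ± 0.683, 5.66% ± 0.674 and 37.5% ± 3.57 of it. The LAMA3 share depends on the transcript taken, and with the short transcript of 5618 bases in place of the MANE Select one of 10651, an alternative added after the data were seen, it became 29.0%, 10.2% and 53.1%. A length taken for all libraries alike cannot change the order of the lines. With the short one, LAMA5 was no longer the most abundant alpha transcript in S2-028. Of the beta chains, LAMB3 took 35.6% ± 0.344, 33.4% ± 3.42 and 43.1% ± 3.17 and LAMB1 33.97% ± 1.28, 45.6% ± 2.099 and 43.02% ± 0.979.

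**Figure D3:**
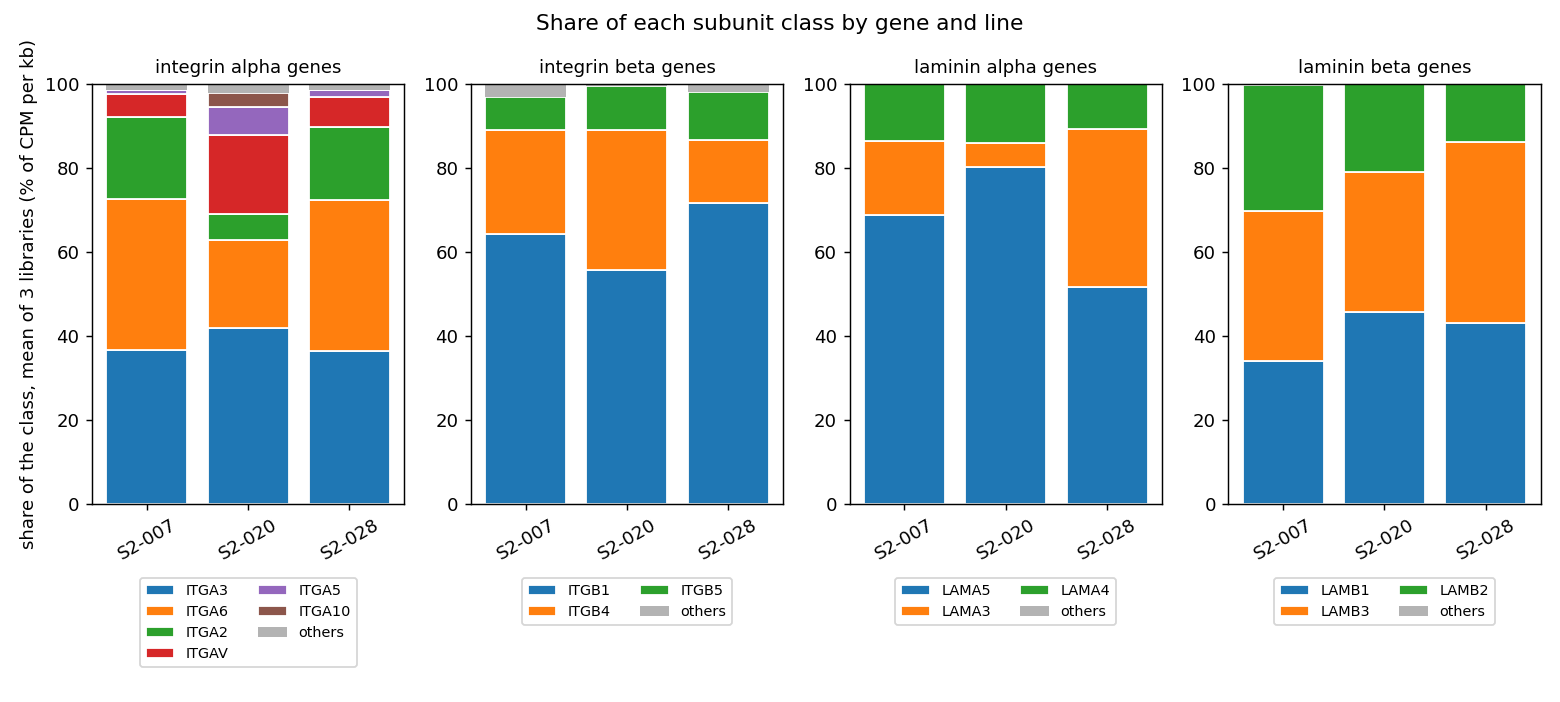
Share of the summed level of 4 subunit classes (y axis, % of CPM per kb of MANE Select transcript, mean of 3 libraries) taken by each gene in the 3 lines (x axis), with genes under 3% in every line combined as others. ITGA6 and ITGA2 take smaller parts and ITGAV a larger part in S2-020, and LAMA3 takes its largest part in S2-028.

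Among the laminin receptors, the transcripts of the epithelial alpha chains were lower in S2-020 and did not pass the fold threshold between the other lines. ITGA6 (chr2:172427336-172506459), the alpha6 chain, measured 1087, 1094 and 1116 normalized CPM in the S2-007 libraries, 326, 349 and 360.0 in S2-020 and 1100.0, 917 and 1163 in S2-028. All S2-020 libraries lay far below the rest, and the ranges of S2-007 and S2-028 overlapped. Its fold change was -1.67 (SE 0.0487, adjusted p = 4.42e-16) in S2-020 against S2-007 and 1.61 (SE 0.0676, adjusted p = 2.42e-13) in S2-028 against S2-020 by edgeR's quasi-likelihood F-test (Benjamini-Hochberg adjusted), and -0.03 (adjusted p = 0.84) in S2-028 against S2-007. ITGA3 (chr17:50056110-50090481), the alpha3 chain, measured 931, 913 and 964 normalized CPM in the S2-007 libraries, 578, 547 and 604 in S2-020 and 929, 844 and 929 in S2-028. It showed the same order with a smaller step: -0.70 (SE 0.0481, adjusted p = 2.83e-10) in S2-020 against S2-007, 0.64 (SE 0.0503, adjusted p = 3.32e-09) in S2-028 against S2-020, and -0.03 (adjusted p = 0.769) in S2-028 against S2-007. ITGA7, the alpha7 chain known from muscle, stayed under 10 CPM, at 8.34, 7.99 and 7.79 normalized CPM in the S2-007 libraries, 4.69, 5.51 and 6.52 in S2-020 and 3.25, 3.902 and 3.28 in S2-028. It fell in S2-028 against S2-007, at -1.18 (adjusted p = 1.82e-06). Its fall against S2-020, -0.69 (adjusted p = 0.00285), was lost without S2-020 replicate 3 (-0.56), while the uncalled -0.53 of S2-020 against S2-007 became a call without that library (-0.65).

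ITGB4 (chr17:75721459-75757818), the beta4 chain, which pairs only with the alpha6 chain, followed another order than ITGA6. It measured 1462, 1469.8 and 1525 normalized CPM in the S2-007 libraries, 1791, 1766 and 1925 in S2-020 and 891, 886 and 909 in S2-028. The S2-028 libraries were the lowest and those of S2-020 the highest, with no overlap. ITGB4 fell in S2-028, with fold changes of -0.70 (SE 0.05, adjusted p = 2.49e-10) against S2-007 and -1.04 (SE 0.0444, adjusted p = 3.35e-13) against S2-020, whereas S2-020 against S2-007 gave 0.30 (adjusted p = 1.03e-05), short of the fold threshold. Per kb, the ratio of ITGB4 to ITGA6 came to 1.33 ± 0.0125 in S2-007, 5.23 ± 0.222 in S2-020 and 0.841 ± 0.09798 in S2-028 (SD, n = 3), and no library of one line reached the range of another. With the MANE Select lengths, more ITGB4 than ITGA6 transcript per kb was thus measured in S2-007 and S2-020, and less in S2-028. The side of 1 depends on the lengths taken, most closely in S2-028, where replicate 2 gave 0.953. Other lengths were not tried for this ratio.

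The collagen receptor alpha genes split in S2-020. ITGA2 (chr5:52989352-53094779), the alpha2 chain of the main epithelial collagen receptor, measured 773, 844 and 797 normalized CPM in the S2-007 libraries, 144, 141 and 126 in S2-020 and 694, 695 and 688 in S2-028. S2-020 lay below the other lines in every library. The fold change was -2.56 (SE 0.0583, adjusted p = 1.04e-17) in S2-020 against S2-007 and 2.33 (SE 0.0545, adjusted p = 4.18e-17) in S2-028 against S2-020 by edgeR's quasi-likelihood F-test (Benjamini-Hochberg adjusted). In S2-028 against S2-007 it was -0.19 (adjusted p = 0.00742), without reaching the fold threshold. ITGA10 (chr1:145891208-145910050), the alpha10 chain known from cartilage, measured 2.16, 2.16 and 1.59 normalized CPM in the S2-007 libraries, 40.1, 52.3 and 49.5 in S2-020 and 1.7, 2.82 and 1.502 in S2-028. It was thus high in S2-020, and its fold change was 4.59 (SE 0.127, adjusted p = 2.09e-16) against S2-007 and -4.56 (SE 0.167, adjusted p = 3.2e-14) in S2-028 against S2-020. S2-028 and S2-007 differed by 0.06 (adjusted p = 0.914).

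ITGA1, the alpha1 chain and the neighbour of ITGA2 on chromosome 5 at a distance of 30.1 kb, measured 18.9, 20.5 and 16.03 normalized CPM in the S2-007 libraries, 13.2, 13.3 and 12.3 in S2-020 and 29.9, 25.3 and 24.1 in S2-028. Of its exon length, 4.65% lies under another gene of the same strand. The lines were separate in every library, in the order S2-020, S2-007, S2-028. It rose in S2-028 against S2-020, by 1.02 (SE 0.0964, adjusted p = 3.97e-08). Against S2-007 the fold changes of 0.54 (adjusted p = 0.000275) in S2-028 and -0.51 (adjusted p = 0.000275) in S2-020 were not called, but the first passed without S2-007 replicate 2 (0.63) or S2-028 replicate 3 (0.61). ITGA11, the alpha11 chain of fibroblasts, stayed under 10 CPM and was called in no comparison.

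The RGD-binding receptor genes ITGA5 and ITGAV were highest in S2-020. ITGA5 (chr12:54395261-54419266), the alpha chain of the main fibronectin receptor, measured 22.3, 24.5 and 21.4 normalized CPM in the S2-007 libraries, 79.7, 77.1 and 81.6 in S2-020 and 33.6, 30.04 and 34.4 in S2-028. The lines did not overlap. ITGA5 rose in S2-020 by 1.81 (SE 0.0662, adjusted p = 1.5e-14) against S2-007, and S2-028 against S2-020 gave -1.29 (SE 0.0662, adjusted p = 5.21e-12) in the same test. In S2-028 against S2-007 the value of 0.55 (adjusted p = 2.34e-05) was just short of the threshold and passed it without S2-007 replicate 2 (0.61) or S2-028 replicate 2 (0.60). ITGAV (chr2:186590056-186680901), the alpha-v chain that pairs with several beta chains, measured 191, 192 and 212 normalized CPM in the S2-007 libraries, 358, 375 and 389.7 in S2-020 and 249.9, 244 and 262 in S2-028. Its order was that of ITGA5, with no overlap of the lines. It rose in S2-020 against S2-007 by 0.92 (SE 0.05505, adjusted p = 3.54e-11). In S2-028 against S2-020 the value of -0.58 (adjusted p = 1.54e-08) lay at the threshold, and it was called without the filter on low counts (-0.59), without S2-020 replicate 1 (-0.61) and without S2-028 replicate 3 (-0.60).

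ITGB6 and ITGB8, whose products pair with the alpha-v chain, were highest in S2-007 and lowest in S2-020, the reverse of ITGAV. ITGB6 (chr2:160099671-160200272), the beta6 chain of an epithelial receptor that activates latent TGF-beta, measured 68.1, 74.9 and 57.2 normalized CPM in the S2-007 libraries, 1.23, 1.21 and 0.924 in S2-020 and 39.1, 38.7 and 33.7 in S2-028. It was at the level of about 1 CPM in S2-020, and S2-028 lay between the other lines without overlap. The fold change was -5.89 (SE 0.124, adjusted p = 3.56e-18) in S2-020 against S2-007, 5.04 (SE 0.127, adjusted p = 1.23e-16) in S2-028 against S2-020 and -0.82 (SE 0.0882, adjusted p = 1.62e-07) in S2-028 against S2-007 by edgeR's quasi-likelihood F-test (Benjamini-Hochberg adjusted). An exon share of 20.8% of ITGB6 lies under another gene of the same strand, so its reads could be split between both annotations. ITGB8 (chr7:20329766-20415754), whose integrin also activates latent TGF-beta, measured 139, 142 and 147 normalized CPM in the S2-007 libraries, 36.4, 35.6 and 35.9 in S2-020 and 102, 96.8 and 97.4 in S2-028. The order was again S2-007, S2-028, S2-020 without overlap. Its fold change was -1.99 (SE 0.0549, adjusted p = 2.01e-16) in S2-020 against S2-007 and 1.45 (SE 0.0583, adjusted p = 1.29e-13) in S2-028 against S2-020, while -0.51 (adjusted p = 4.23e-07) in S2-028 against S2-007 was under the fold threshold.

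ITGB5, the beta5 chain of a vitronectin receptor, measured 343, 355 and 357 normalized CPM in the S2-007 libraries, 436, 433 and 439.6 in S2-020 and 557, 498 and 518 in S2-028, and its S2-007 libraries were the lowest. The call in S2-028 against S2-007, 0.60 (SE 0.0575, adjusted p = 2.53e-08), was lost without S2-028 replicate 1 (0.56). In S2-020 against S2-007 it was 0.31 (adjusted p = 1.32e-05), not called. ITGB3, the beta3 chain of platelet and vessel integrins, stayed under 10 CPM, with 4.39, 4.196 and 4.27 normalized CPM in the S2-007 libraries, 3.49, 3.09 and 3.18 in S2-020 and 1.41, 0.852 and 0.865 in S2-028. It fell in S2-028, with -2.01 (adjusted p = 4.21e-07) against S2-007 and -1.65 (adjusted p = 1.12e-05) against S2-020. A share of 38.1% of its exons lies under another gene of the same strand.

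ITGB1 (chr10:32900318-32958230), the beta1 chain that most alpha chains pair with, passed the fold threshold in no comparison. It measured 2413, 2460.0 and 2431 normalized CPM in the S2-007 libraries, 1922, 1964 and 1912 in S2-020 and 2859, 2539 and 2769 in S2-028. S2-020 lay below and S2-028 above S2-007 in every library, with -0.33 (adjusted p = 4.03e-07) in S2-020 against S2-007 and 0.19 (adjusted p = 0.0062) in S2-028 against S2-007. ITGAE, the alpha chain of a receptor for E-cadherin, lay around 10 CPM with 8.75, 9.16 and 8.69 normalized CPM in the S2-007 libraries, 7.42, 7.76 and 6.13 in S2-020 and 9.27, 9.82 and 11.5 in S2-028 and was called in no comparison, the value being 0.51 (adjusted p = 0.0038) in S2-028 against S2-020.

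**Figure D4:**
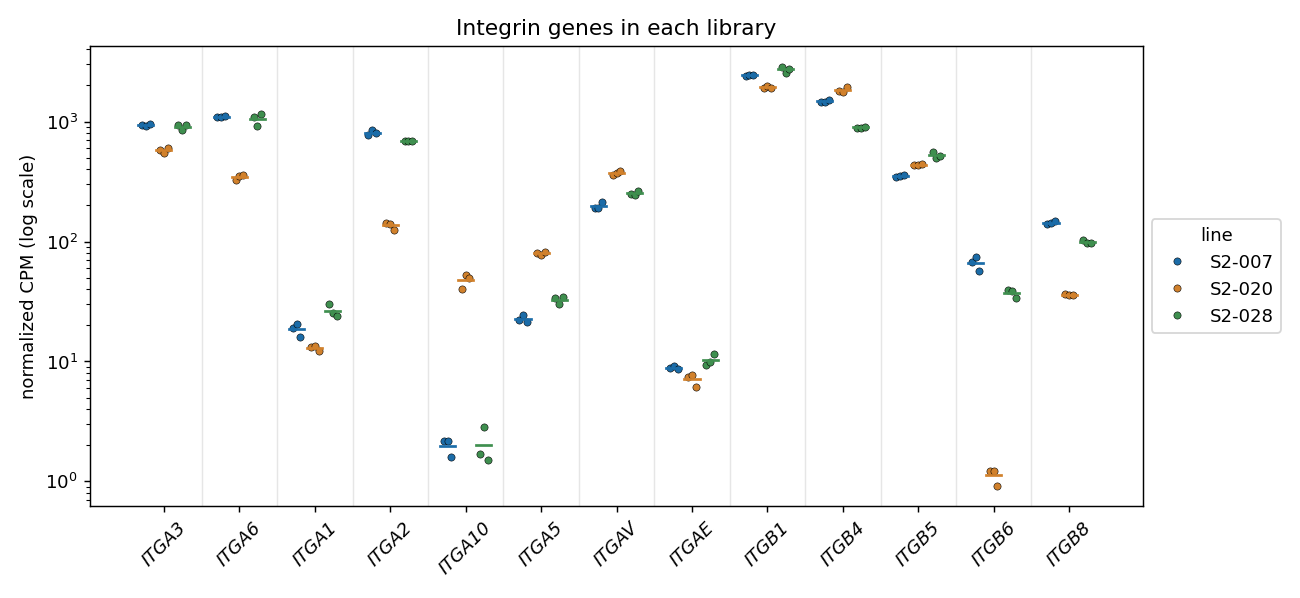
Normalized CPM on a log scale (y axis) of the 13 integrin genes with at least 10 CPM in a line (x axis), with a point for each library and a bar for the mean of each line's 3 libraries. In S2-020, ITGA3, ITGA6, ITGA2, ITGB6 and ITGB8 are lowest and ITGA10, ITGA5, ITGAV and ITGB4 highest.

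Per kb, these differences changed the makeup of the integrin transcripts. The summed alpha level came to 524 ± 8.61 CPM per kb in S2-007, 282 ± 8.799 in S2-020 and 506 ± 33.3 in S2-028. The ITGA6 share of the alpha total came to 36.02% ± 0.1502 in S2-007, 20.99% ± 0.6602 in S2-020 and 35.9% ± 2.03 in S2-028 (SD, n = 3). The ITGA2 share was 19.6% ± 0.852, 6.19% ± 0.615 and 17.5% ± 1.25. ITGAV took 5.38% ± 0.245 in S2-007, 18.8% ± 0.362 in S2-020 and 7.08% ± 0.2902 in S2-028, and ITGA5 1.02% ± 0.0791, 6.62% ± 0.147 and 1.52% ± 0.00851. ITGA3 was among the largest alpha shares in all lines, at 36.5% ± 0.717, 41.8% ± 1.42 and 36.4% ± 0.552. Of the beta total, ITGB1 held 64.2% ± 0.382, 55.6% ± 1.19 and 71.6% ± 0.768, and ITGB4 24.8% ± 0.485, 33.3% ± 1.22 and 14.9% ± 0.701. The epithelial marker sum was also lowest in S2-020, and its part in these differences was not tested.

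Of the 17 members under 10 CPM in every line, 9 were called in a comparison. The matching share of other genes as low was not computed. The beta chains of leukocyte integrins were detected mainly in S2-007: ITGB2 measured 1.35, 2.105 and 1.82 normalized CPM in the S2-007 libraries, 0.166, 0.2495 and 0.248 in S2-020 and 0.291, 0.248 and 0.1795 in S2-028. ITGB7 measured 1.15, 1.07 and 1.22 normalized CPM in the S2-007 libraries, 0.0554, 0.333 and 0.165 in S2-020 and 0.162, 0.0929 and 0.0653 in S2-028. Both fell against S2-007, ITGB2 by fold changes of -2.84 (adjusted p = 1.13e-06) in S2-028 and -2.98 (adjusted p = 3.6e-07) in S2-020, and ITGB7 by -3.38 (adjusted p = 3.94e-06) and -2.60 (adjusted p = 0.000115), the last becoming -3.35 without S2-020 replicate 2. The leukocyte marker sum was also higher in S2-007, at 338 to 419 CPM against 11.7 to 12.3 in S2-020 and 13.5 to 14.7 in S2-028. LYZ (337 ± 41.5 in S2-007, 2.55 ± 0.596 in S2-020 and 2.11 ± 0.275 in S2-028) and CD68 (41.6 ± 2.11 in S2-007, 7.76 ± 0.624 in S2-020 and 10.4 ± 0.877 in S2-028) made up nearly all of that sum, while 5 of the 7 markers were under 1 CPM in S2-007 and PTPRC averaged 0.304. Their part in the ITGB2 and ITGB7 levels was not tested. Of the ITGB7 exon length, 52.4% lies under a gene of the opposite strand.

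The other low members rested on few counts. LAMA2, the alpha2 chain of muscle laminin, measured 2.105, 2.06 and 1.599 normalized CPM in the S2-007 libraries, 0.928, 0.772 and 1.296 in S2-020 and 2.06, 2.46 and 2.15 in S2-028. Its S2-020 libraries were the lowest, with -0.95 (adjusted p = 0.00628) against S2-007 and 1.15 (adjusted p = 0.00121) in S2-028 against S2-020. ITGAM, a myeloid alpha chain, measured 0.711, 0.328 and 0.6099 normalized CPM in the S2-007 libraries, 1.15, 2.57 and 2.72 in S2-020 and 1.52, 0.341 and 0.816 in S2-028. It was called higher in S2-020 than in S2-007, 1.96 (adjusted p = 9.83e-05). The call in S2-028 against S2-020, -1.28 (adjusted p = 0.0149), was lost without S2-020 replicate 2 (adjusted p = 0.0614), S2-020 replicate 3 (0.0769) or S2-028 replicate 2 (0.0799, the largest over the alternatives), and the value was -1.90 without S2-028 replicate 1. ITGA4, which pairs with the beta1 or beta7 chain, measured 0.219, 0.191 and 0.163 normalized CPM in the S2-007 libraries, 0.471, 0.832 and 0.455 in S2-020 and 0.6798, 0.774 and 1.13 in S2-028. It was higher than in S2-007 by 2.19 (adjusted p = 0.000658) in S2-028 and 1.61 (adjusted p = 0.0128) in S2-020, and the second call was lost without S2-020 replicate 2 (1.27, adjusted p = 0.129, the largest over the alternatives). Of its exon length, 41.5% lies under a gene of the opposite strand. ITGA2B, the platelet alpha chain, measured 0.601, 0.711 and 0.773 normalized CPM in the S2-007 libraries, 1.398, 1.15 and 1.53 in S2-020 and 0.971, 0.774 and 1.27 in S2-028, with a rise of 0.97 (adjusted p = 0.00942) in S2-020 against S2-007. ITGA8, an RGD-binding alpha chain, measured 0.929, 1.33 and 0.7996 normalized CPM in the S2-007 libraries, 0.706, 0.4397 and 0.455 in S2-020 and 1.17, 0.6504 and 1.09 in S2-028. Its call in S2-020 against S2-007, -0.93 (adjusted p = 0.0381), was lost without S2-007 replicate 1 or 2 or S2-020 replicate 2 or 3, with fold changes of -0.98, -0.68, -0.81 and -0.83. In S2-028 against S2-020 ITGA8 was called only without S2-020 replicate 1 or S2-028 replicate 2 (1.10 and 1.09).

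The other 8 low members, ITGA9, ITGA11, ITGAD, ITGAL, ITGAX, LAMA1, LAMB4 and LAMC3, were called in no comparison. LAMC3, the gamma3 chain, was called lower in S2-028 than in S2-020 only without S2-020 replicate 2 (-1.28). In total 5 members stayed under 1 CPM in every line.

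Intracellular partners of integrins moved in both directions. Of 36 regulators and focal adhesion adaptors tested, 5 were higher and 7 lower in S2-028 than in S2-007 (10.2% and 8.19% of all genes). The counts were 8 and 8 in S2-020 against S2-007 (9.57% and 12.1%), and 6 and 10 in S2-028 against S2-020 (12.1% and 10.1%). Their medians were -0.28, -0.08 and -0.05. TNS4, a tensin that lacks the actin-binding part of its relatives, measured 331.5 ± 20.5 in S2-007, 15.6 ± 2.63 in S2-020 and 871 ± 104 in S2-028 (mean CPM ± SD, n = 3). It moved as LAMA3 did: 1.42 (adjusted p = 1.3e-12), -4.41 (adjusted p = 2.93e-18) and 5.80 (adjusted p = 1.43e-18) in the 3 comparisons in that order, by edgeR's quasi-likelihood F-test (Benjamini-Hochberg adjusted). FERMT1, the epithelial kindlin that activates beta chains, measured 208 ± 9.95 in S2-007, 63.8 ± 1.702 in S2-020 and 88.4 ± 6.81 in S2-028 and was highest in S2-007, with -1.21 (adjusted p = 3.85e-12) in S2-028 and -1.70 (adjusted p = 2.2e-15) in S2-020. TNS3, another tensin, gave 1.09 (adjusted p = 5.89e-12) in S2-028 and 1.68 (adjusted p = 8.02e-15) in S2-020 against S2-007, and its call in S2-028 against S2-020, -0.62, was lost without S2-020 replicate 1 (-0.57).

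Of the 4 further hemidesmosome genes, COL17A1, the transmembrane collagen that binds laminin and the beta4 chain, measured 931 ± 31.3 in S2-007, 81.2 ± 4.64 in S2-020 and 257 ± 15.96 in S2-028. It fell against S2-007 with -1.83 (adjusted p = 7.16e-16) in S2-028 and -3.52 (adjusted p = 7.28e-20) in S2-020, so it was lower in S2-028 while LAMA3 and LAMB3 were higher. S2-028 against S2-020 gave 1.66 (adjusted p = 1.82e-14). PLEC, the linker from the beta4 chain to keratin, was called lower in S2-028 than in S2-020, -0.62 (adjusted p = 3.7e-07), a call lost without S2-020 replicate 3 (-0.53) or S2-028 replicate 2 (-0.54). No other gene of this list was called in S2-028 against S2-007 or in S2-020 against S2-007.

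Basement membrane genes other than laminins were called higher more often than lower in both comparisons with S2-007. Of 14 tested, 8 were higher and 1 lower in S2-028 than in S2-007, 6 and 0 in S2-020 against S2-007, and 2 and 5 in S2-028 against S2-020, with medians of 1.62, 0.93 and -0.31. Shares of all genes were 10.2% higher and 8.19% lower, 9.57% and 12.1%, and 12.1% and 10.1% in the same order. Those called higher in S2-028 than in S2-007 included COL4A3, COL4A4, COL4A5 and COL4A6, which averaged 0.791, 1.33, 0.328 and 0.114 CPM in S2-007. The abundant HSPG2, at 1004 CPM in S2-007 and 1289 in S2-028, was not called. COL18A1, the collagen that carries endostatin, measured 74.5 ± 3 in S2-007, 697 ± 26.7 in S2-020 and 521 ± 11.2 in S2-028, with 2.83 (adjusted p = 1.2e-18) in S2-028 and 3.23 (adjusted p = 1.4e-19) in S2-020 against S2-007. NTN4, a netrin that binds laminin gamma chains, gave 2.81 (adjusted p = 2.85e-15) and 3.96 (adjusted p = 4.62e-17), and COL7A1, the anchoring fibril collagen, 1.98 (adjusted p = 1.16e-09) and 3.23 (adjusted p = 1.75e-14). NID1, which links laminin to collagen IV through the gamma1 chain, was the gene that fell in S2-028 against S2-007, -0.79 (adjusted p = 1.46e-09). Of 4 genes of non-integrin laminin receptors or their partner proteins, BCAM, a receptor for the alpha5 chain, measured 12.97 ± 1.46 in S2-007, 33.8 ± 4.66 in S2-020 and 46.3 ± 1.16 in S2-028. It rose by 1.86 (adjusted p = 4.31e-13) in S2-028 and 1.38 (adjusted p = 9.78e-10) in S2-020. SGCE, a sarcoglycan and not itself a laminin receptor, rose in S2-028 against S2-007 by 0.65 (adjusted p = 3.65e-06), and DAG1, the dystroglycan gene, was lower in S2-028 than in S2-020 at -0.62 (adjusted p = 1.25e-08), a call lost without S2-028 replicate 1 (-0.58).

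Members were also set beside their chromosomal neighbours. For each member the median fold change of the 50 nearest genes tested was taken. Around LAMA3 it was 0.14, -0.02 and 0.06 in the 3 comparisons, where LAMA3 itself gave 1.16, -1.98 and 3.11. Around ITGA3 the median was 0.22, -0.39 and 0.68, beside the gene's own -0.03, -0.70 and 0.64. The neighbours of ITGB8 gave 0.17, -0.55 and 0.49, where ITGB8 gave -0.51, -1.99 and 1.45, so the signs differed in the first comparison and were alike in the others. ITGB5 had neighbours at 0.40, 0.07 and 0.22, beside its own 0.60, 0.31 and 0.26. Copy number was not measured.

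**Figure D5:**
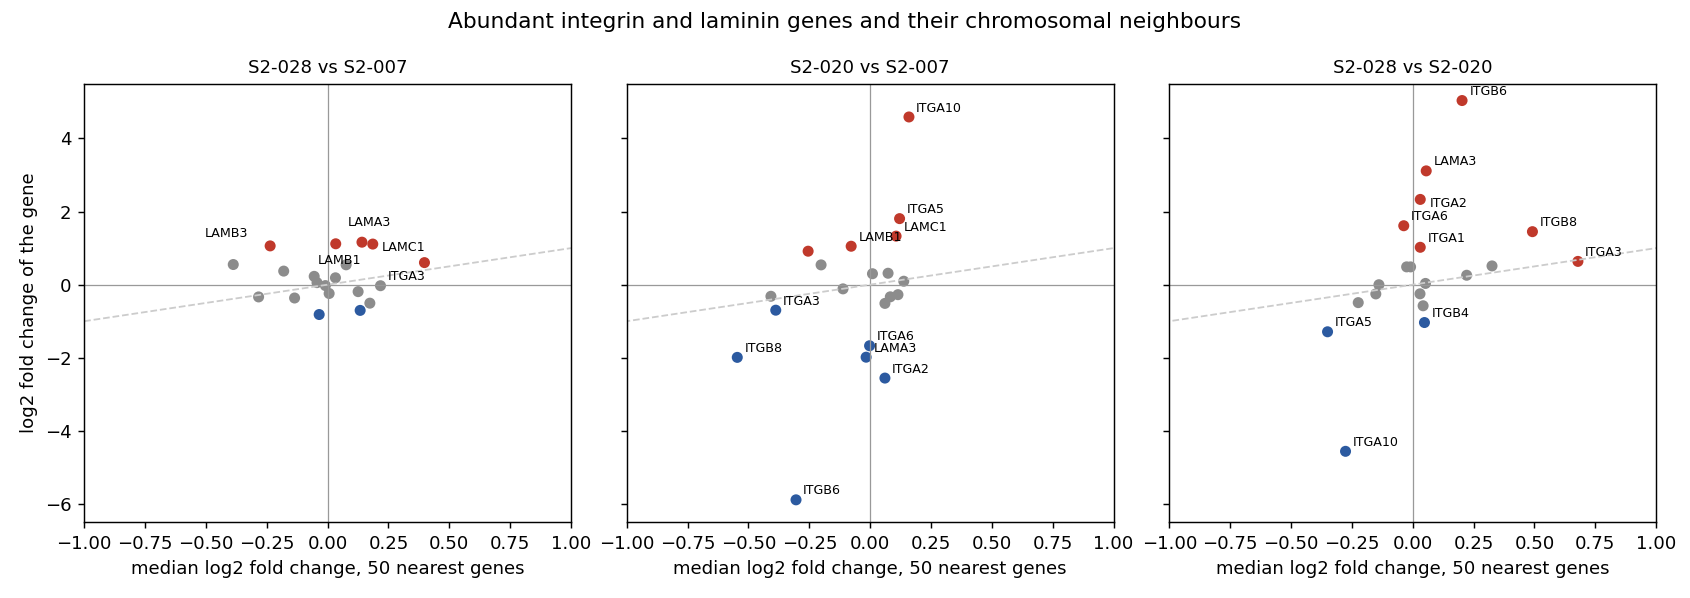
Log2 fold change of 20 members with at least 10 CPM in a line (y axis) against the median of the log2 fold changes of the 50 genes nearest to it on the chromosome (x axis), in the 3 comparisons. Red was called higher, blue lower, grey not called, and the dashed line marks equal values. LAMB1, ITGA10 and ITGB6 lie far from the dashed line where they were called, while ITGA3 lies close to it in S2-028 against S2-020 (0.64 for the gene and 0.68 for its neighbours).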

How the data were processed

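RNA was measured by strand-specific poly(A) sequencing of 9 libraries, 3 per line. The authors deposited raw read counts per gene, made from reads trimmed with Trimmomatic (0.39) and aligned with BWA (0.7.17) to GRCh38.p14, with SAMtools (1.12) and edgeR (3.16.5) also named in the submitters' processing notes; the counting tool, its strand setting and its treatment of multiply mapped reads are not given in the sources used here. The authors also deposited 18 columns of normalized signal, which were not used in tests. Libraries were grouped by the cell line in their labels, and 2 lines of the table that name no gene were left out.

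Counts were tested with edgeR (4.0.16, R 4.3.3): TMM normalization, the filterByExpr rule (at least 10 counts, and 15 in total), glmQLFit and glmQLFTest on the 6 libraries of each comparison over the whole table, with Benjamini-Hochberg adjustment over all genes tested. Calls needed an adjusted p under 0.05 and a fold change of at least 1.5. Printed CPM use TMM factors from all 9 libraries, and levels per kb use the length of the MANE Select transcript (GENCODE, GRCh38). Positions and promoter windows are from RefSeq (GRCh38.p14). The scripts were tested on simulated data.

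The members and the gene lists were chosen with earlier results of these data known. All members enter the counts, but results for 1 member and 1 gene of the other lists are not reported here. Values in each library are given for those with at least 10 CPM in a line or called in a comparison, and of each other list at most 4 called genes of at least 10 CPM, those with the smallest adjusted p. Alternatives were RLE size factors, no filter, a likelihood ratio test, DESeq2 (1.42.0), a fit of all 9 libraries, the replicate number as a block, and leaving out each library.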

Additional observations from a re-analysis of the deposited data

How the results depend on the processing

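Over all alternatives the number of integrin and laminin genes called higher and lower stayed at 6 to 9 and 6 in S2-028 against S2-007, 8 to 9 and 9 to 10 in S2-020 against S2-007, and 9 to 11 and 4 to 7 in S2-028 against S2-020. Of 1344 fits of a single member under an alternative, 1318 kept the call, 11 lost it, 15 gained it and 0 reversed, and 99 of 112 member fold changes kept their call in every alternative. With the replicate number as a block, 7 members were higher and 6 lower in S2-028 against S2-007, 8 and 9 in S2-020 against S2-007, and 9 and 6 in S2-028 against S2-020, and the call lost was ITGA8 in S2-020 against S2-007 (-0.93, adjusted p = 0.0513 in edgeR). Libraries of the same number correlated in their deviations from the line means by 0.0199 to 0.234, -0.0174 to 0.109 and 0.0244 to 0.0365 in the 3 comparisons, and 4, 2 and 6 of 6 libraries correlated best with their own number. In S2-028 against S2-020 every same-number correlation thus exceeded every other, of which the highest was 0.00759, while in the other comparisons these ranges overlapped. The main fits did not take the numbers to pair the libraries, and the block fits give the calls if they do. The LAMA3 level per kb, with the short transcript length chosen after seeing the data, became 41.6 in S2-007, 10.5 in S2-020 and 91.3 in S2-028 in place of 21.9, 5.54 and 48.2. Depth limits the 17 members under 10 CPM, among which calls changed without single libraries in ITGA4, ITGA7, ITGA8, ITGAM and LAMC3.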

Other observations

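Surface partners and other ligands of integrins also differed between the lines. Of 6 tetraspanins tested, 2 were lower in S2-028 than in S2-007, and in S2-020 against S2-007 1 was higher and 2 lower. TSPAN8, a tetraspanin of epithelial tumours, measured 242 ± 12.6 in S2-007, 26.1 ± 3.79 in S2-020 and 58.2 ± 8.05 in S2-028 (mean CPM ± SD, n = 3), with fold changes of -2.03 (adjusted p = 2.19e-14) in S2-028 and -3.21 (adjusted p = 8.04e-17) in S2-020 against S2-007 by edgeR's quasi-likelihood F-test (Benjamini-Hochberg adjusted). CD82, known as a metastasis suppressor, gave -1.80 (adjusted p = 1.81e-14) and -1.57 (adjusted p = 3.58e-12). TSPAN4 rose in S2-020 against S2-007, 0.68 (adjusted p = 5.08e-05), a call lost without S2-007 replicate 2 (0.56), and in S2-028 against S2-020 it was called only without S2-020 replicate 3 (-0.61). Of 21 other integrin ligands tested, 9 were higher and 4 lower than in S2-007 in each of S2-028 and S2-020. In S2-028 against S2-020, 7 of these ligands were higher and 5 lower. Of all genes tested, 18.4% were called in S2-028 against S2-007, 21.6% in S2-020 against S2-007 and 22.2% in S2-028 against S2-020. Some of the called ligands were near the floor: FN1 reached at most 1.92 CPM in any library and FGB 0.383.

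SPP1, the osteopontin gene, a ligand of alpha-v integrins, measured 0.854 ± 0.0558 in S2-007, 4.44 ± 0.857 in S2-020 and 31.9 ± 3.38 in S2-028, with 5.25 (adjusted p = 1.7e-17) in S2-028 and 2.38 (adjusted p = 1.71e-08) in S2-020 against S2-007. VCAM1, the ligand of the ITGA4 integrins, measured 0.218 ± 0.0719 in S2-007, 17.6 ± 1.66 in S2-020 and 0.297 ± 0.0717 in S2-028 and was called in S2-020 against S2-007 at 6.32 (adjusted p = 7.61e-16). CCN2, a matricellular protein, gave 1.41 (adjusted p = 8e-09) and 3.70 (adjusted p = 3.37e-17), and THBS1, thrombospondin 1, -0.87 (adjusted p = 7.39e-07) and 2.25 (adjusted p = 3.84e-13), so THBS1 was lower in S2-028 and higher in S2-020 than in S2-007. Of 4 proteases that process laminins, 2 were lower in both lines than in S2-007, against 8.19% of all genes in S2-028 and 12.1% in S2-020. MMP14, a membrane-bound metalloprotease, gave -3.12 (adjusted p = 1.71e-17) and -0.97 (adjusted p = 2.15e-11), and BMP1, an astacin protease, -0.93 (adjusted p = 2.78e-08) and -1.15 (adjusted p = 2.9e-09).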
